A study of Oryza sativa with 2 samples.

Results

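The genes described are 7 stress-response transcription factor genes of rice, DREB1A, DREB1B, DREB1E, DREB1G, DREB2A, DREB2B and EREBP1, among 17905 genes with a probe set on the Affymetrix rice GeneChip. They were chosen by name, with earlier results of these arrays known, and 5 of them by a fixed probe set. DREB1A and DREB1B were to be taken from their probe sets of highest mean signal, and each had 1. Because the control against transgenic comparison was already known when the genes were picked, their ratios are a description of these arrays and no test is given.

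Leaves of 6-week-old greenhouse plants, 10 plants of each genotype, were compared without treatment on 1 array per genotype, the control 9311, an indica rice variety, and 9311 carrying LRK1 (LRK1 060615 transgenic rice in the labels). LRK1 encodes a leucine-rich repeat receptor-like kinase. The labels do not state the promoter of the transgene, whether the line is a single insertion event, or whether the 10 plants were pooled before labelling. Each array thus stands for its genotype alone, differences lack a replicate check, and precision is limited by the number of arrays.

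DREB and EREBP proteins belong to the AP2/ERF family of plant transcription factors. DREB proteins bind the dehydration-responsive element, also called the C-repeat, in promoters of stress genes. The DREB1 genes, called CBF genes in Arabidopsis, are classically induced within hours of cold, and the DREB2 genes by drought, salt or heat, while ethylene-responsive element binding proteins recognise the GCC box of defence gene promoters. In unstressed leaves DREB1 transcripts are known to be scarce.

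Values are MAS5 log2 signals. A floor was set at the median of all 57258 probe sets other than array controls over both arrays, a log2 signal of 5.40. The call higher or lower needed signals at or over the floor on both arrays and a difference of 2-fold or more. Where 1 array lay under the floor, a gene was called above the floor on the other array only if its signal there was 2 times the floor or more, and the fold, taken over the floor, is then a lower bound. Of the 7 genes, 5 reached the floor on both arrays and 2, DREB1A and DREB1E, on the transgenic array only, so that these 2 entered through the array on which they were higher. Levels of different probe sets are not comparable with each other, so only the arrays are compared.

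DREB1A, DREB1B, DREB1E and DREB1G had higher signals in the LRK1 transgenic leaves, while a further DREB1 gene with probe sets, DREB1C, was below the floor on both arrays. Of these, DREB1B and DREB1G reached the floor on both arrays, with log2 ratios (transgenic minus control) of 1.35 and 0.60. DREB1B was called higher and DREB1A above the floor on the transgenic array only. DREB1E and DREB1G were not called. DREB2A was lower and DREB2B higher in the transgenic leaves, neither by 2-fold, and the brighter EREBP1 probe set differed by less than 2-fold. In all, 1 of the 7 genes was called higher, 1 above the floor on the transgenic array only and none lower. Among 15150 genes at or over the floor on either array, 6.09% were called higher, 1.08% above the floor on the transgenic array only, 9.91% lower and 1.52% above the floor on the control array only. These shares stand beside the 7 genes as background only.

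**Figure D1:**
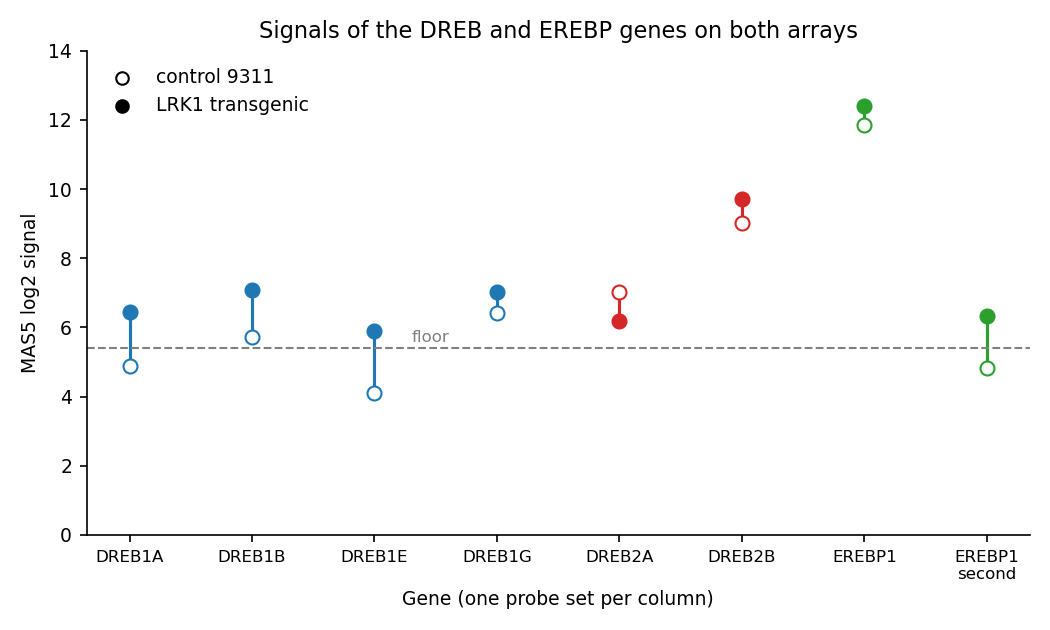
MAS5 log2 signal of each probe set of the 7 genes on the control 9311 array (open circles) and the LRK1 transgenic array (filled circles), 1 array each, with the floor of 5.40 as a dashed line. DREB2A is the gene with the filled circle below the open one, and DREB1A, DREB1E and the second EREBP1 probe set cross the floor.

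DREB1A (LOC4347620), also named CBF3 in the gene table, is a cold-induced activator that raises cold and drought tolerance of rice when overexpressed. Its log2 signal was 4.88 in control and 6.45 in transgenic leaves, linear signals of 29.4 and 87.6. The control value lay below the floor and the transgenic value just past the floor plus 1 (6.40), so the call was marginal and the difference was at least 2.08-fold. It was no longer called under any of 4 other scalings between the arrays (quantile normalization, loess, and centring on the median or the spike ratio), where its log2 ratio was 1.23 to 1.34 against 1.57 as deposited.

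DREB1B (LOC4347618), a second cold-induced member, went from 5.73 on the control to 7.08 on the transgenic array, linear signals of 53.0 and 135.5. Both values reached the floor, the control by 0.33, and the transgenic array was 2.56-fold higher. DREB1B stayed called under the same 4 scalings, at log2 ratios from 1.02 to 1.21. Its lowest value, with spike centring, was thus close to the 2-fold line.

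DREB1E (LOC4336721) was below the floor in the control. Its log2 signal was 4.10 in control and 5.90 in transgenic leaves. The latter exceeded the floor by 0.51, less than the 1 that a call asks for, so no fold against the control is given and its signal was 1.42 times the floor. DREB1G (LOC4330306) had both signals above the floor, 6.42 in control and 7.02 in transgenic leaves. Its difference was 1.51-fold, short of the 2-fold rule.

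Low signals are noisy, and the DREB1 values lie in that range. Genes within 0.5 of the mean log2 signal of DREB1B, 1369 in number, had log2 ratios from -0.94 to 0.91 between the 16th and 84th percentiles, and 10% of them were called higher and 9.64% lower. Around DREB1A, 8.48% of 1333 genes were called above the floor on the transgenic array only and 9.08% on the control array only. Genes near the mean signal of DREB1E spread further, from -2.01 to 1.78, but the floor widens this range. A gene whose mean lies below the floor enters only if 1 array reaches it, so small ratios are left out there. DREB1E itself entered in this way. In 125 genes a pair of probe sets had mean log2 signals that both lay between the floor and 7. The ratios of these pairs differed with an SD of 1.18, a spread that holds the error of both probe sets. Both were read on the same arrays, so the SD leaves out differences between plants or arrays that a pair shares.

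**Figure D2:**
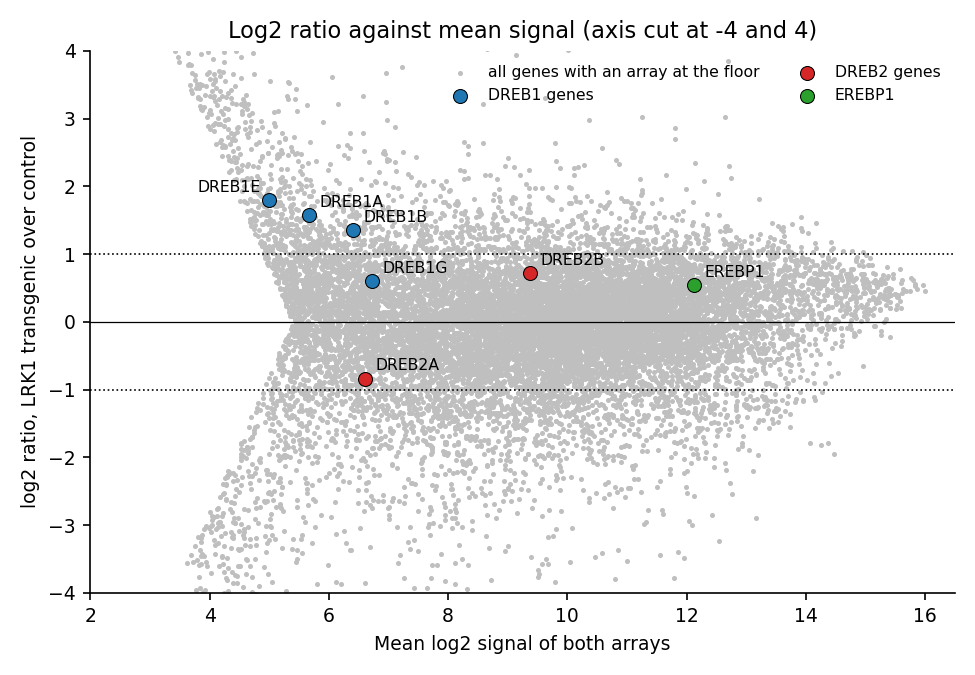
Log2 ratio (LRK1 transgenic over control) against mean log2 signal for 15150 genes at or over the floor on either array (grey), with the 7 genes marked and dotted lines at 2-fold. The wedge without points at low signal is made by the floor. The DREB1 genes sit at low signal, where the grey cloud is wide, and EREBP1 at high signal, where it is narrower.

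The gene table of the Japonica assembly ASM3414082v1 places DREB1B, DREB1H and DREB1A next to each other on chromosome 9, with no other gene between them. DREB1H, the middle gene, has no probe set in the annotation used here. On the outer side of DREB1B, the DNA repair nuclease gene GEN1 (LOC4347617) had log2 signals of 7.44 and 7.65, a log2 ratio of 0.21. On the outer side of DREB1A, the adjacent gene has no probe set in that annotation. The one after it, LOC4347621, went from 1.91, below the floor, to 6.42 on the transgenic array. The latter value lay just past the floor plus 1 (6.40), so the call was marginal and the difference was at least 2.03-fold. Next to DREB1G on chromosome 2, LOC4330307 was 3.11-fold higher, from 7.68 to 9.32. Neighbours of the other members with a probe set were not called. Over all 15150 genes, 6.09% were called higher and 1.08% above the floor on the transgenic array only, given as background only.

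Of 13 genes with a DREB1 or DREB2 name in the gene table, 8 had a probe set, the 6 described here and DREB1C and DREB2D. The latter pair was below the floor on both arrays. For DREB1C (LOC4339974), also named CBF1, the probe set of highest mean signal gave 3.45 in control and 3.03 in transgenic leaves. Its other probe sets were listed at 0 and 0.77 in control and at 4.34 and 3.51 in transgenic leaves, so its probe sets differ in sign below the floor and no fold is given. DREB2D (LOC4339084) gave 3.79 and 4.58 on its brighter probe set and 1.38 and 1.28 on the other.

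The DREB2 genes encode activators of drought and heat responses. DREB2A (LOC4324418), induced by drought and salt in rice, had a log2 signal of 7.03 in control and 6.19 in transgenic leaves, linear signals of 130.8 and 73.1. It was the only one of the 7 with a lower signal in the transgenic leaves, by 1.79-fold. The ratio of -0.84 moved to -0.97 with quantile normalization and -0.99 with loess, and it passed the 2-fold rule at -1.07 with median centring and -1.18 with spike centring. Near its mean signal, the 16th to 84th percentiles of 1371 genes ran from -0.97 to 0.94, which holds the ratio as deposited.

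DREB2B (LOC4338484), whose transcripts are alternatively spliced in rice under stress, went from 9.01 to 9.73, a difference of 1.64-fold. Around its mean signal the 16th to 84th percentiles of 2191 genes ran from -0.89 to 0.57, so its ratio of 0.72 lay above that range. It kept a positive ratio under the 4 other scalings, between 0.38 and 0.79, and was under 2-fold in each. The probe set does not tell the splice forms apart as far as the annotation used here goes. DREB2A and DREB2B thus had ratios of opposite sign on these arrays, a difference between genes that was not tested.

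EREBP1 (LOC4330935) encodes an ethylene-responsive element binding protein that a rice MAP kinase phosphorylates. Its brighter probe set had log2 signals of 11.86 in control and 12.40 in transgenic leaves, 1.45-fold higher. The ratio of 0.54 lay within the 16th to 84th percentiles of 1389 genes of like signal, -0.69 to 0.67. A second probe set of the gene went from 4.84, below the floor, to 6.32, short of the floor plus 1, with a ratio of 1.48. Both probe sets were higher on the transgenic array. The second had a control signal below the floor, so the sizes of the change are not compared. The median over both probe sets, which takes in that low signal, gave a ratio of 1.01 and would have called EREBP1 higher.

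**Figure D3:**
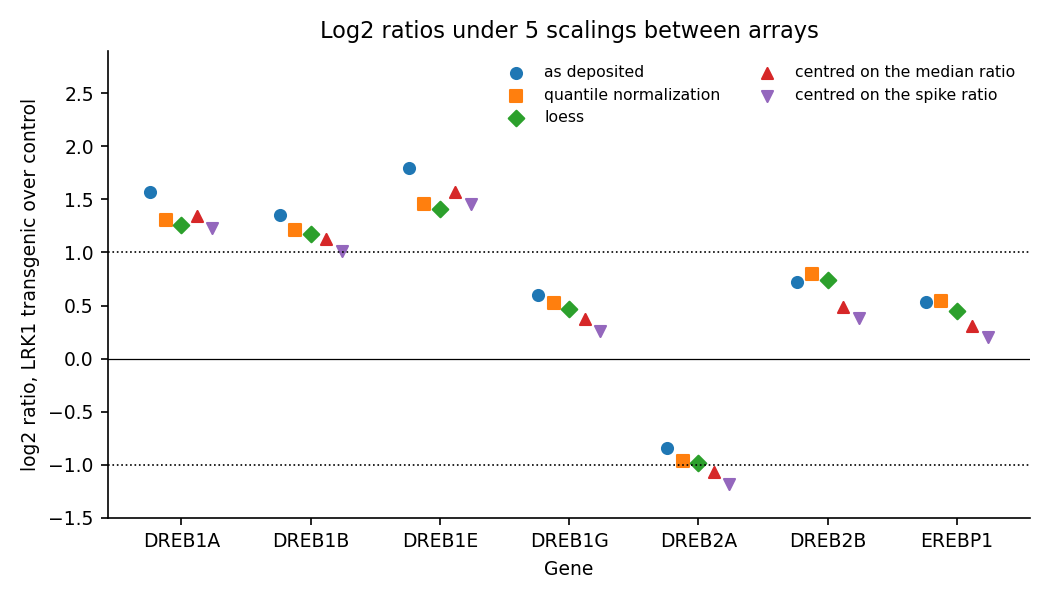
Log2 ratio (LRK1 transgenic over control) of the 7 genes as deposited and under 4 other scalings between the arrays, with dotted lines at 2-fold. DREB1A and DREB1E rest on control signals below the floor. No gene changes sign, which neither centring could bring about. Every DREB1 ratio is lower than as deposited under each other scaling, and DREB2A passes the lower line under both centrings.

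Across the 4 other scalings no member changed sign, which only quantile normalization and loess could have brought about. Each centring takes off less than the size of any member ratio. Centring on the median ratio of all probe sets takes 0.23 off each log2 ratio and centring on 69 spike probe sets takes off 0.34. The log2 ratios of the spike probe sets had an SD of 0.68, so that shift is loosely set. Relative to the spikes the ratios of the genes at the floor on both arrays were 1.02 for DREB1B, 0.26 for DREB1G, 0.38 for DREB2B, 0.20 for EREBP1 and -1.18 for DREB2A.

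Upstream of DREB genes act cold-signalling kinases, MYB factors and clock and light genes. The list of upstream regulators also holds genes outside these classes, such as SIZ1, SIZ2, NAC6, PP2C27, EIN2 and EIL1. In all, 31 genes of the list had a probe set, each with an array at the floor. Some symbols, MPK3, MAPK6 and EIL1 among them, matched more than 1 gene, and each gene is counted. The list had 1 gene called higher, 1 lower and 1 above the floor on the control array only, and 28 without a call. Over all 15150 genes at or over the floor on either array these shares were 6.09%, 9.91% and 1.52%, given as background only. Its median log2 ratio was 0.12. SAPK10 (LOC4333435), a SnRK2 kinase of osmotic stress and abscisic acid signalling, went from 7.72 to 8.81, 2.13-fold higher, and was not called with either centring. MYB4 (LOC4336407), a cold-induced MYB activator of rice, went from 10.38 to 8.61, 3.41-fold lower. EIL1B (LOC4332697, listed under EIL1), of the EIN3-like ethylene factors, went from 11.76 to 5.11, at least 82.2-fold lower. The other gene listed under EIL1 (LOC107276358) went from 14.08 to 14.33 and was not called. MYBS3 (LOC4349385), a repressor of DREB1 genes in cold-treated rice, had a log2 ratio of 0.72 and was not called, with signals of 12.55 and 13.26. HSFA3 (LOC4329526), on this list although DREB2A activates it in Arabidopsis, had a ratio of 0.88 and was not called. CCA1 (LOC4344703), a clock gene and the brightest of the list, had a ratio of 0.62 and was not called.

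Downstream of DREB factors stand genes of dehydration and cold protection. The list of downstream genes had 18 with a probe set, all with an array at the floor. Of these, 2 were called higher, 4 lower and 3 above the floor on the control array only, and 9 had no call. The shares over all 15150 genes, again as background only, were 6.09% higher, 9.91% lower and 1.52% above the floor on the control array only. The 3 genes, LEA3, RAB16D and RAB16C, entered through the control array, on which they were higher. Control-only calls were more frequent at low signal, 9.12% near the mean signal of DREB1E and 9.08% near that of DREB1A. RAB16D and RAB16C had mean signals in these ranges, and LEA3 a lower one. The median log2 ratio of the list was 0.05. The list mixes genes known to respond to DREB1 overexpression with genes that respond mainly to abscisic acid, among them the RAB16 dehydrins. LIP9 (LOC4330265), a dehydrin gene that responds to DREB1A overexpression in rice, had signals of 11.97 in control and 12.38 in transgenic leaves, a log2 ratio of 0.41, and was not called.

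Of the genes called higher, TPP1 (LOC4330221), a trehalose-6-phosphate phosphatase of cold and salt tolerance, went from 8.59 to 9.70, 2.15-fold, and the dehydrin gene RAB21 (LOC4350454) from 7.10 to 8.17, 2.09-fold. Neither stayed called with either centring. Genes called lower were RAB25 (LOC4326935), 4.37-fold, RAB16B (LOC4350453), 3.87-fold, TPP2 (LOC4349333), 2.36-fold, and LTI6B (LOC4337750), a low-temperature-induced membrane protein gene, 2.04-fold from a control signal of 14.79. LTI6A (LOC4344028), the related gene, had a ratio of 0.62. LEA3 (LOC4339480), RAB16D (LOC4350451) and RAB16C (LOC4350452) were at least 2.31-fold, 2.07-fold and 2.64-fold lower, from control signals of 6.61, 6.44 and 6.80. The LEA3 probe set ends in _s_at and can bind several transcripts. SODCC1 (LOC4332846), a superoxide dismutase gene and the brightest of the list, had a ratio of 0.37.

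**Figure D4:**
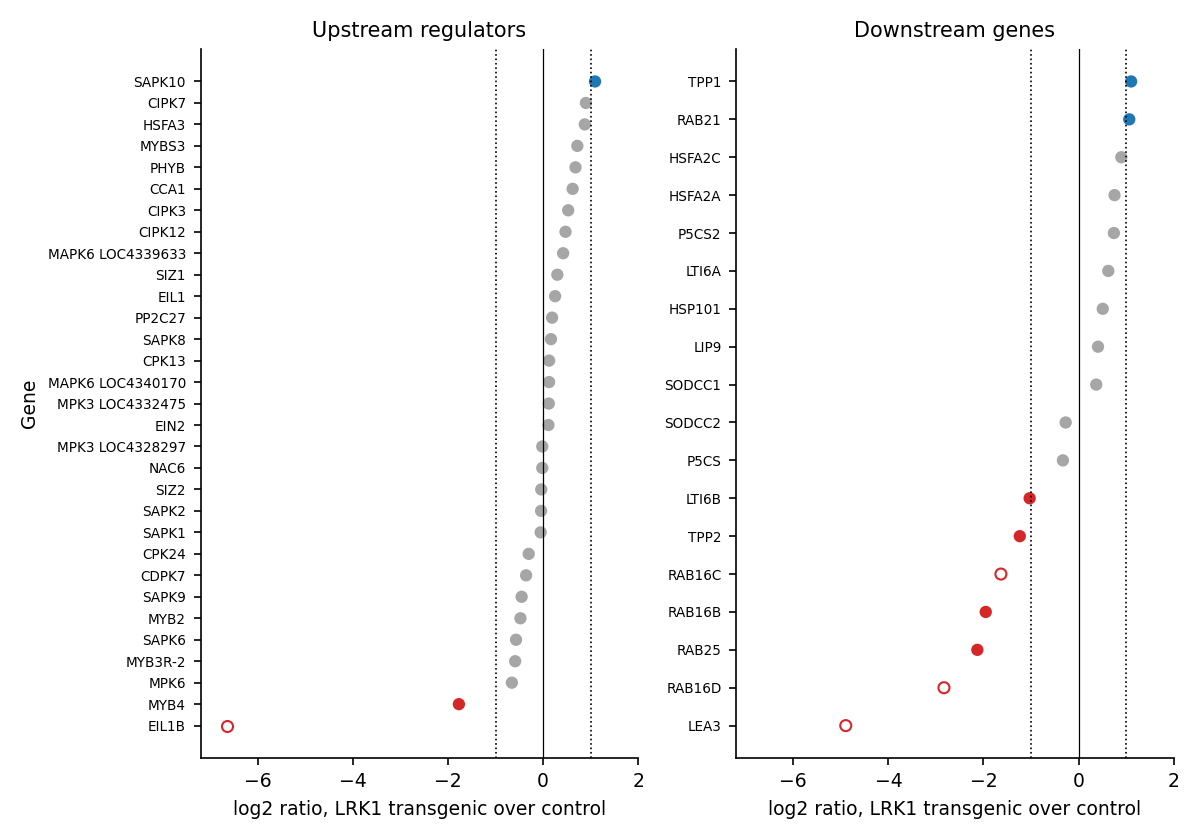
Log2 ratio (LRK1 transgenic over control) of 31 genes of the upstream list and 18 of the downstream list, with dotted lines at 2-fold. Blue marks genes called higher, red genes called lower, open symbols genes above the floor on the control array only, and grey genes without a call. MYB4 and EIL1B stand apart below in the upstream list, and LEA3, RAB16D, RAB25, RAB16B and RAB16C have the lowest values of the downstream list, 3 of them with transgenic signals below the floor, while RAB21 was called higher.

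Other AP2/ERF genes on the list matched 11 genes, of which 5 had a probe set and 2 an array at the floor. RSR1 (LOC4337654), an AP2 factor of starch synthesis, had signals of 9.93 and 10.71, a log2 ratio of 0.78. SHAT1 (LOC9269072), an AP2 gene of seed shattering, had 9.56 and 9.15, a ratio of -0.41. Neither was called. FZP (LOC4344233), of floral meristem identity, was below the floor on both arrays, as were DREB1C and DREB2D.

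The leaf label was checked against marker genes. RBCS, CAB2R and RCA had log2 signals between 15.15 and 16.24 on both arrays. The seed genes GLUA1 and RP5 were below the floor on both arrays, as was the root silicon transporter gene LSI2 (0.04 and 1.65), but its partner LSI1 read 10.40 and 10.50. Of 5 floral genes, MADS16 read 9.49 and 10.07, MADS2 (LOC4325001) 7.63 and 6.36, MADS4 5.76 and 6.49, DL 3.65 and 6.10, and MADS3 was below the floor on both arrays. The part of other tissues in the DREB values was not tested. In whole leaves, fewer cells of a type and less RNA per cell cannot be told apart. In 6 of 6 housekeeping probe set pairs the control array had the higher 3' to 5' signal ratio, at 9.45 against 6.95 and 13.3 against 9.34 for actin, 3.87 against 2.16 for GAPDH and 2.05 against 1.62 for cyclophilin. The actin pairs with control ratios of 13.3 and 16.4 share their 5' probe set, so the 6 pairs are not separate checks. The difference was small for the third actin pair (16.4 against 16.2) and for ubiquitin (0.83 against 0.78). Its part in the DREB ratios was not tested.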

How the data were processed

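The authors deposited a log2 signal for each probe set on each array, summarised by MAS5 per the submitters' processing notes. Values between 0 and 16.24 gave the scale. Neither the MAS5 version nor its scaling target is given in the sources used here, and detection calls were not used. MAS5 can bring arrays to a common level, so a change shared by most transcripts could go unseen. Probe sets were named through the platform annotation and the RefSeq gene table of ASM3414082v1, in which all 17905 genes were found. Of 57258 probe sets, 22436 had 1 gene, 95 several (not named) and 34727 none. A gene is represented by its probe set of highest mean signal. With 1 array per genotype no test was run. The calling rule was tested on simulated data, which cannot show the error that 1 array per genotype leaves. Loess used a span of 0.3. Software was Python 3.11.15 with pandas 2.3.3 and statsmodels 0.14.6.

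The 7 members and the gene lists were chosen with earlier results of these data known. The lists were matched by symbol or synonym, so they are incomplete. Of 58 AP2/ERF symbols, 2 of which were added from the gene table, 52 upstream and 44 downstream symbols, 11, 34 and 18 genes matched, after genes that share a symbol but belong to another family were dropped by hand. Named genes were the members with every probe set, list genes past the calling rule (up to 6 per direction) and the brightest of each list, and the table neighbours. The rule also asked for the 2 genes nearest in signal to each member, which are not given because levels of different probe sets are not comparable. LIP9, MYBS3, HSFA3, EIL1 (LOC107276358), LTI6A, SHAT1 and FZP were named after their values were seen. Sequences of the members were not used here.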

Additional observations from a re-analysis of the deposited data

How the results depend on the processing

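No paired analysis was possible because each genotype has 1 array. Of 77 member values under 11 alternatives, 61 stayed on the same side of the calling rule, 9 lost their call and 7 gained one. None changed sign, but only quantile normalization and loess could have brought that about. The other floors and folds, and leaving out x and s probe sets, kept every ratio as deposited. Both centrings shift the ratios by less than the size of any member ratio, and log2(signal + 16) keeps the sign. The median took in only EREBP1 probe sets of the same sign. DREB1A lost its call with quantile normalization (1.31), loess (1.25), median centring (1.34), spike centring (1.23) and log2(signal + 16) (1.19), which left 0 members above the floor on 1 array only. It also lost it, at 1.57, with a 75th percentile floor and the 4-fold rule, where DREB1B (1.35) lost its call too, leaving 0 members higher. With a 25th percentile floor 3 members were higher and 0 above it on 1 array only, DREB1E (1.80) having gained a call. Under the 1.5-fold rule 3 were higher and 1 lower, with DREB1G (0.60), DREB2B (0.72) and DREB2A (-0.84) gained. Centring on the median or the spikes made DREB2A lower (-1.07 and -1.18), 1 member lower in each case. The median over probe sets called EREBP1 higher (1.01), 2 members in all. The other floors and folds and both centrings act by their own threshold or shift, and the median takes in the second EREBP1 probe set. With quantile normalization, loess and log2(signal + 16), DREB1A read 6.37, 6.29 and 6.69 on the transgenic array. The floors were 5.38, 5.38 and 5.86. Each signal was thus short of the floor plus 1, with the control below the floor.

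Upstream genes called higher and lower were 1 and 1 as reported. There were 0 higher with either centring, the 75th percentile floor and the 4-fold rule, which also left 0 lower, 2 lower with the 25th percentile floor, and 6 higher and 3 lower under the 1.5-fold rule. Downstream genes called higher and lower were 2 and 4. There were 0 higher with either centring and the 4-fold rule, and 6 higher under the 1.5-fold rule. With log2(signal + 16), the median over probe sets and the 75th percentile floor 1 was higher. The lower count was 2 with the 75th percentile floor, 1 with the 4-fold rule and 6 with the 25th percentile floor. Other AP2/ERF genes were 0 and 0, with 1 higher under the 1.5-fold rule and 1 lower with the median over probe sets. Over all probe sets 2042 were higher and 2430 lower, a share higher of 45.7% that was 26.1% with median centring, 19.3% with spike centring and 25.2% under the 4-fold rule. More were higher than lower with a 25th percentile floor (5774 and 4577, 55.8%) and under the 1.5-fold rule (5394 and 4692, 53.5%). Signal near the floor limits the DREB1 values.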
